A study of Mus musculus with 9 samples.

Results

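Nrg4, Bmp8b, Fgf21, Vegfa, Gdf15, Slit2, Ptgds, Metrnl and Il6 encode factors, or in 1 case the enzyme for a factor, that brown fat can release. These 9 genes were matched by exact symbol among the 24356 symbols of the expression tables, and all 9 were found. RNA was sequenced from brown adipose tissue of 9 mice, 1 library per mouse, and the values are FPKM (read fragments corrected for the length of the transcript and the size of the library), which allow levels to be compared between genes. The libraries are labelled GHRH-KO (KO, 2 female and 2 male) or WT littermate control (3 female and 2 male). The KO mice carry a targeted disruption of growth hormone releasing hormone, which leaves them with an isolated growth hormone deficiency, and both groups share a mixed C57BL6 and 129SV background, chow fed without restriction, and the same housing. The age of the mice is not given in the sources used here, and the disruption is present in the whole animal rather than in fat alone.

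Brown fat burns fuel to make heat, and it also signals to other tissues through secreted proteins and lipids, often called batokines. Some of these act on the liver or brain (Nrg4, Fgf21, Gdf15), some on vessels and nerves (Vegfa, Bmp8b, Slit2), and some on immune cells or inflammation (Metrnl, Il6, and prostaglandin D2, which the product of Ptgds makes). Several are known to be induced by cold exposure or by cellular stress, so that low levels at rest are common.

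Before any comparison, the libraries themselves showed features that bear on it. Ghrh (chr2:157329497-157347506, mm10), the targeted gene, had values of 0.846, 0.233, 0.799 and 0.470 FPKM under the KO label. It had a value of 0 in each of the 5 libraries under the WT label. Values above 0 under the KO label are not what a loss of the transcript would give. The values of 0 say nothing against the WT label unless brown fat normally expresses Ghrh, which was not tested. Whether a remaining transcript of the disrupted gene was counted was not tested. Every direction below therefore means libraries labelled KO against libraries labelled WT. The library labelled KO male 1 stood apart, with Spearman correlations over genes of 0.933 to 0.942 with the others, while the rest reached up to 0.978 among themselves. Its 6 lymphocyte markers, led by Cd3e, summed to 159 FPKM, while the other libraries labelled KO reached at most 1.67 and those labelled WT at most 3.76. Its 7 macrophage markers, led by Lyz2, summed to 405 FPKM, against at most 35.2 in the other libraries labelled KO and 41.4 to 100.4 in those labelled WT. The 11 skeletal muscle markers, led by Acta1, summed to 2571 to 11070 FPKM in libraries labelled KO, with the highest sum in KO male 1, and to 399 to 2145 FPKM in those labelled WT, and all 11 had a higher mean log2 level in the former. The 9 white adipocyte markers, led by Retn, summed to 39.0 to 96.8 and to 87.0 to 342 FPKM. Lep passed as lower under the KO label (0.580 to 2.66 against 5.44 to 23.0 FPKM, limma adjusted p 0.0426). The depot markers Tcf21 and Hoxc10 were at 0 in all 9 libraries. Wt1 and Hoxc9 were above 0 only in KO male 1 (0.0240 and 0.0226 FPKM) and WT female 3 (0.0524 and 0.0247 FPKM). All 7 fibroblast markers had a lower mean log2 level under the KO label, with sums of 131 to 216 against 161 to 298 FPKM, led by Dcn. Of these, 3 passed by limma and did not overlap: Col1a1 (6.17 to 7.57 against 9.20 to 20.6 FPKM), Col3a1 (17.5 ± 2.82 against 37.4 ± 9.08 FPKM, mean ± SD, n = 4 and 5) and Lum (4.59 to 7.67 against 9.18 to 22.9 FPKM). The macrophage marker Cd163 also passed as lower under the KO label (0.856 to 1.40 against 1.78 to 2.58 FPKM). Of the 14675 genes above 0 FPKM in all 9 libraries, 5502 had a positive limma difference. By limma 2.17% of them passed as lower, and 6.04% lay lower under the KO label with no overlap. The sums of endothelial markers (99.7 to 159 against 132 to 162 FPKM, led by Pecam1) overlapped between the labels. The 9 brown adipocyte genes were above 0 in every library, but so were the 11 muscle and 6 lymphocyte markers, which does not tell tissues apart. Ucp1, the uncoupling protein, led the brown adipocyte list at 1357 to 2992 FPKM, a high level that fits the tissue label. The part of these other cell types in the results below was not tested. Relative depth, estimated from low values, ran from 0.917 to 1.14 of that of WT female 1, and the sum of FPKM from 380558 to 443569.

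**Figure D1:**
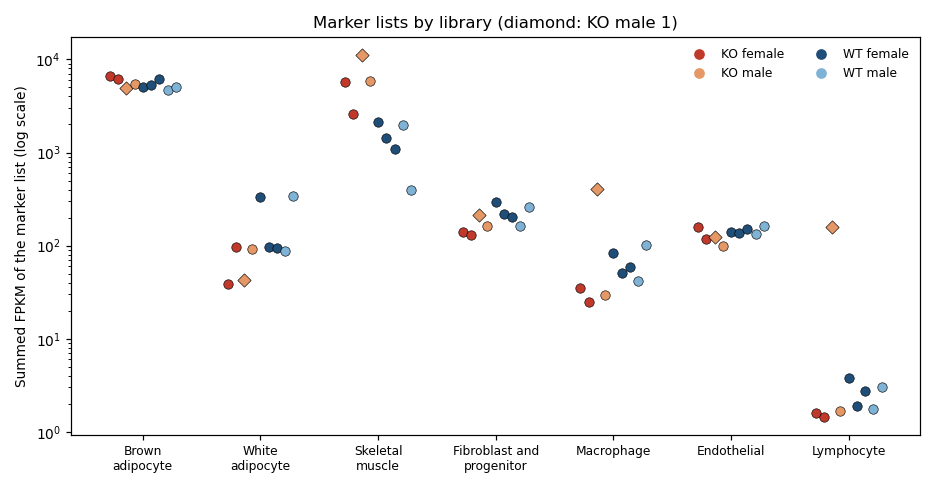
Summed FPKM (log scale) of 7 lists of cell type markers, 1 point per library, coloured by genotype label and sex, with the diamond for KO male 1. The diamond stands far above all other points for lymphocyte markers (159 FPKM) and macrophage markers (405 FPKM), and the 4 libraries labelled KO lie above the 5 labelled WT for skeletal muscle markers.

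The 9 factors covered a wide range of levels, and most of them lay near the detection limit. Taken as an FPKM of 0 in at least 1 library or a mean under 0.1 FPKM, that limit was met by 5 of 9: Gdf15, Fgf21, Slit2, Bmp8b and Il6. The same 5 met it with 0.3 in place of 0.1. Vegfa, with a mean of 71.5 FPKM over the 9 libraries, stood above 95.8% of the 18933 genes expressed in any library, and Nrg4, with 41.2 FPKM, above 93.1%. Ptgds (2.96 FPKM) and Metrnl (2.29 FPKM) came near the middle, above 57.3% and 53.2%. The 5 low factors had means of 0.230 (Gdf15), 0.163 (Fgf21), 0.0966 (Slit2), 0.0804 (Bmp8b) and 0.0138 FPKM (Il6), above 28.7% to 10.3% of expressed genes.

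The order at the top held in every library, with Vegfa above Nrg4 and Nrg4 above Ptgds in 9 of 9. Ptgds was above Metrnl in 4 of 4 libraries labelled KO but in 3 of 5 labelled WT, so these neighbours were not separated by more than their spread. Metrnl was above Gdf15 in 9 of 9 libraries. Among the low factors the order varied: Gdf15 was above Fgf21 in 5 of 9 libraries, Fgf21 above Slit2 in 7, Slit2 above Bmp8b in 7, and Bmp8b above Il6 in 8.

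**Figure D2:**
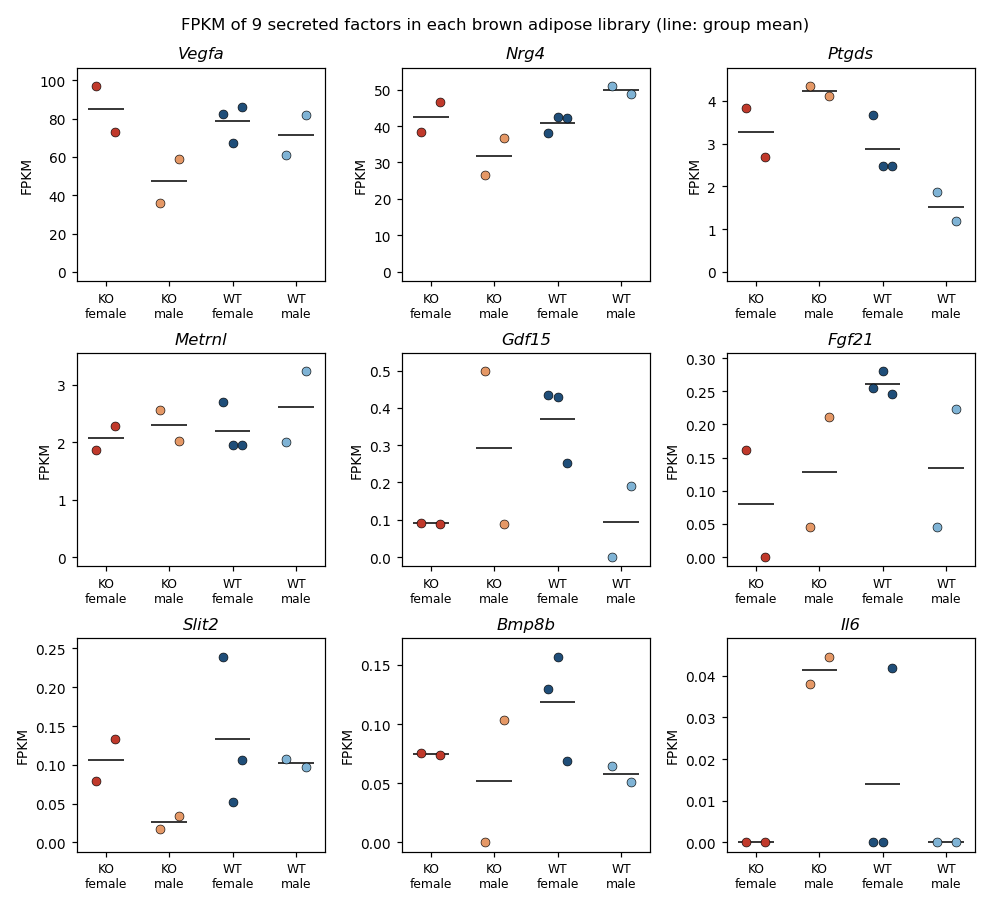
FPKM of the 9 factors, 1 point per library in 4 groups of genotype label and sex, with a line at the group mean and a separate linear axis for each gene. Libraries labelled KO and WT overlap for all 9 genes over both sexes. The males separate for 5 of 9: Ptgds and Il6 with the KO label higher, and Nrg4, Vegfa and Slit2 with it lower. Of genes above 0 FPKM in all 9 libraries, 10.8% separate in males with the KO label higher and 28.7% with it lower. Il6 is outside that set, and its males separate by 0.0382 and 0.0446 FPKM against 0.

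The question put to these genes was whether libraries labelled KO and WT differ in brown fat's secretory output at the level of RNA. Only genes above 0 FPKM in all 9 libraries, 14675 in all, entered the model (limma on log2 FPKM, a mean for each group of genotype and sex, Benjamini-Hochberg adjustment), and 5 of the 9 factors were among them: Vegfa, Nrg4, Ptgds, Metrnl and Slit2. Averaged over the sexes, 0 of these 5 passed an adjusted p of 0.05, a threshold that 3.6% of all genes tested passed. At an unadjusted p under 0.05, 2 of 5 (Ptgds and Nrg4) were counted, where 20.2% of all genes were. The ordinary linear model at p under 0.01 also called 0 of 5, against 7.54% of all genes. In bulk tissue, fewer cells of a type and less RNA per cell cannot be told apart.

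Ptgds (chr2:25466709-25470046, minus strand) encodes the lipocalin-type prostaglandin D synthase, which is both a secreted carrier protein and the enzyme for prostaglandin D2. Its level in libraries labelled KO was 3.82 and 2.69 FPKM in females and 4.34 and 4.12 FPKM in males. In libraries labelled WT it was 3.67, 2.47 and 2.47 FPKM in females and 1.86 and 1.20 FPKM in males. The libraries labelled KO were mostly the higher ones, at 3.74 ± 0.732 against 2.33 ± 0.913 FPKM (mean ± SD, n = 4 and 5), but WT female 1 lay within their range. This was the largest difference relative to its error among the 5 factors, at 0.85 on the log2 scale (SE 0.20, 95% interval 0.38 to 1.32, limma adjusted p 0.0639). Leaving out KO male 1 gave 0.83 with a limma adjusted p of 0.0874. Leaving out WT male 1 gave 1.01. That fit leaves WT male 2 as the only WT-labelled male and assumes that it varies like the other groups.

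The sexes did not contribute alike to this value for Ptgds. In males the KO-labelled libraries lay above the WT-labelled ones with no overlap, which 10.8% of all genes tested also did, and the difference was 1.51 on the log2 scale (SE 0.30, 95% interval 0.81 to 2.20, limma adjusted p 0.0812). In females the ranges overlapped and the difference was 0.19 (SE 0.27, limma adjusted p 0.833). The difference between the sexes, 1.32 (SE 0.41), did not pass (limma adjusted p 0.649). An exact permutation test of the KO and WT labels for Ptgds on log2(FPKM + 0.1) gave a difference of 0.73 and a two-sided p of 0.0397, where the smallest p the design can give is 0.00794. That p became 0.0833 when labels were permuted within each sex and 0.107 without KO male 1, both by the exact permutation test.

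Nrg4 (chr9:55220222-55326844, minus strand) encodes neuregulin 4, a growth factor of the epidermal growth factor family that brown fat makes in quantity and that acts on the liver through Erbb3 and Erbb4. Its level was 38.5 and 46.5 FPKM in KO-labelled females and 26.7 and 36.8 FPKM in KO-labelled males. In WT-labelled libraries it was 38.1, 42.4 and 42.2 FPKM in females and 50.9 and 48.7 FPKM in males. The females overlapped, while both KO-labelled males lay below both WT-labelled males, as was so for 28.7% of all genes tested. Averaged over the sexes the difference was -0.31 on the log2 scale (SE 0.11, 95% interval -0.57 to -0.05, limma adjusted p 0.169), at 37.1 ± 8.13 against 44.5 ± 5.24 FPKM (n = 4 and 5).

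The lowest Nrg4 value was that of KO male 1, the library with lymphocyte, macrophage and the most muscle RNA. Without it the averaged difference was -0.19 (limma adjusted p 0.217) and that in males -0.43 (limma adjusted p 0.214), from -0.67 with it (SE 0.16, 95% interval -1.05 to -0.29, limma adjusted p 0.106). Without KO male 2 the difference was -0.42 on average and -0.90 among males. That fit leaves KO male 1 as the only KO-labelled male and assumes that it varies like the other groups. In females the difference was 0.05 (SE 0.15, limma adjusted p 0.925). The difference between the sexes was -0.72 (SE 0.22, limma adjusted p 0.649) with all 9 libraries. It was -0.95 without KO male 2. An exact permutation test of the labels gave a two-sided p of 0.127, 0.2 when labels were permuted within each sex and 0.468 with median centring. With single libraries left out, the exact permutation p ran from 0.0357 (without KO female 2) to 0.321 (without KO male 1).

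Vegfa (chr17:46016993-46032369, minus strand) encodes vascular endothelial growth factor A, which drives the growth of the capillaries that supply brown fat. Its level was 96.9 and 72.8 FPKM in KO-labelled females and 35.7 and 59.0 FPKM in KO-labelled males. The WT-labelled libraries gave 82.4, 67.4 and 86.3 FPKM in females and 61.0 and 81.7 FPKM in males. KO-labelled libraries held both the highest value, in a female, and the lowest, in KO male 1, so that the groups overlapped, at 66.1 ± 25.6 against 75.7 ± 10.9 FPKM (n = 4 and 5). The averaged difference was -0.26 on the log2 scale (SE 0.18, 95% interval -0.68 to 0.16, limma adjusted p 0.495), and -0.08 without KO male 1 (limma adjusted p 0.777).

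Vegfa was the factor with the clearest sex difference, at -0.51 on the log2 scale for male minus female (SE 0.18, unadjusted p 0.0236), and this too missed the limma adjusted threshold (adjusted p 0.402). It was -0.69 without KO male 2 and -0.33 without KO male 1, fits that leave 1 KO-labelled male. With any 1 WT-labelled female left out it did not pass. In males both KO-labelled libraries lay below both WT-labelled ones, as for 28.7% of all genes, with a difference of -0.62 (SE 0.27, limma adjusted p 0.302), and of -0.26 without KO male 1 (limma adjusted p 0.592). In females the difference was 0.10 (SE 0.24, limma adjusted p 0.903).

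Metrnl (chr11:121701544-121716306, plus strand) encodes meteorin-like, a secreted protein that acts on immune cells of fat. Averaged over the sexes with all 9 libraries, it showed the smallest difference of the 5 factors tested. Its level was 1.87 and 2.29 FPKM in KO-labelled females and 2.57 and 2.03 FPKM in KO-labelled males. The WT-labelled libraries gave 2.71, 1.95 and 1.95 FPKM in females and 2.01 and 3.23 FPKM in males. All KO-labelled libraries but KO female 1 lay inside the WT range, at 2.19 ± 0.304 against 2.37 ± 0.580 FPKM (n = 4 and 5). The averaged difference was -0.11 on the log2 scale (SE 0.20, limma adjusted p 0.826), and its 95% interval of -0.57 to 0.34 leaves room for a change of either sign. Leaving out WT male 2, the highest library, turned it to 0.06.

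Slit2 (chr5:47983138-48307733, plus strand, 39 exons) encodes a large secreted guidance protein, a fragment of which is released by fat cells and raises heat production. It was above 0 in all 9 libraries but low, at 0.0797 and 0.134 FPKM in KO-labelled females and 0.0170 and 0.0346 FPKM in KO-labelled males. Under the WT label it was 0.239, 0.0525 and 0.106 FPKM in females and 0.108 and 0.0978 FPKM in males. The KO-labelled males were the lowest libraries and lay below both WT-labelled males, as for 28.7% of all genes, while the females overlapped. The averaged difference was large but poorly determined, at -1.09 on the log2 scale (SE 0.54, 95% interval -2.33 to 0.16, limma adjusted p 0.311), and -0.83 without KO male 1 (limma adjusted p 0.377). With 0.1 added to each value it shrank to -0.40 (limma adjusted p 0.441 over the same genes). With the depth that the steps of Fgf21 imply, described next, and its longest transcript of 9960 bases, Slit2 would rest on very roughly 4 fragments in KO male 1 and 49 in WT female 1. On the same footing Vegfa would rest on 2878 to 6595 fragments, Nrg4 on 1201 to 2251, Metrnl on 51 to 106 and Ptgds on 25 to 91, so that the 2 factors with high levels are the best measured ones.

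For Gdf15, Fgf21, Bmp8b and Il6 the FPKM, once multiplied by the relative depth of each library, were whole multiples of a fixed step for each gene. The largest deviation from a whole multiple was 0.814%, for Fgf21. The step was 0.0511 FPKM for Fgf21 and 0.0144 FPKM for Bmp8b, and if 1 step is 1 fragment, these correspond to 20.6 M and 23.6 M fragments (M, mega) in WT female 1 from the length of the single coding transcript of each gene. The step of Gdf15 corresponds to 14.9 M to 16.7 M fragments over the lengths of its coding transcripts, so the depth is known only roughly and its 1 step need not be exactly 1 fragment. The whole numbers of steps, 29 in all for Fgf21, 50 for Bmp8b, 49 for Gdf15 and 3 for Il6, show how few molecules may stand behind these values. The intervals given for them cover counting error only, and not the spread between mice. Totals by label are sums over 4 libraries labelled KO and 5 labelled WT, not scaled for number or depth of libraries. A lower total under the KO label is therefore not by itself a lower level.

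Fgf21 (chr7:45613886-45615490, minus strand) encodes fibroblast growth factor 21, a hormone of the fasting and stress response that acts through Fgfr1 and its co-receptor Klb. It was at 0.162 and 0 FPKM in KO-labelled females and at 0.0450 and 0.210 FPKM in KO-labelled males, or 3, 0, 1 and 4 steps. Under the WT label it was at 0.255, 0.280 and 0.246 FPKM in females and 0.0460 and 0.223 FPKM in males, or 5, 5, 5, 1 and 5 steps. Of the 5 WT-labelled libraries, 4 lay above every KO-labelled library, by as little as 1 step, and WT male 1 lay among the lowest. Summed over 4 libraries there were 8 steps under the KO label (exact Poisson 95% interval 3.45 to 15.8). Summed over 5 libraries there were 21 under the WT label (13.0 to 32.1). The exact permutation test gave a difference of -0.67 on the log2(FPKM + 0.1) scale and a two-sided p of 0.167. With single libraries left out, the exact permutation p ran from 0.0286 (difference -0.92, without WT male 1) to 0.393 (difference -0.37, without KO female 2).

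Gdf15 (chr8:70629393-70632456, minus strand) encodes growth differentiation factor 15, a stress hormone that lowers appetite through the brainstem receptor Gfral, which was itself at 0 in every library. It was at 0.0916 and 0.0894 FPKM in KO-labelled females and at 0.498 and 0.0895 FPKM in KO-labelled males, or 2, 2, 13 and 2 steps. In WT-labelled libraries it was at 0.434, 0.428 and 0.251 FPKM in females and 0 and 0.190 FPKM in males, or 10, 9, 6, 0 and 5 steps. The highest value of all 9 was that of KO male 1, which also carried the lymphocyte and macrophage RNA, and the other KO-labelled libraries had 2 steps each. Both KO-labelled females lay below the 3 WT-labelled females, as was so for 26.6% of the genes tested, a set that does not hold Gdf15. The totals were 19 steps in the 4 libraries labelled KO (exact Poisson 95% interval 11.4 to 29.7) and 30 in the 5 labelled WT (20.2 to 42.8). The exact permutation difference was -0.29 on the log2(FPKM + 0.1) scale (two-sided p 0.722), and -0.71 without KO male 1 (exact permutation p 0.304).

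Bmp8b (chr4:123105165-123132099, plus strand) encodes a bone morphogenetic protein that raises the response of brown fat to sympathetic nerves, and it has a close neighbour on the same chromosome, Bmp8a (chr4:123312645-123343252, minus strand). The coding sequences of Bmp8b (1200 bases) and Bmp8a (1239 bases) share 1056 of 1200 aligned bases, 88.0%, with a longest identical run of 182 bases, so a 50-base read can belong to either gene. The following 120 bases, positions 255 to 374 of each coding sequence from its start codon in GENCODE M21 (mm10), are shown because they hold both a stretch that tells the genes apart and, at their end, an identical run of 50 bases that does not. Capitals mark the 16 bases that differ.
Bmp8b: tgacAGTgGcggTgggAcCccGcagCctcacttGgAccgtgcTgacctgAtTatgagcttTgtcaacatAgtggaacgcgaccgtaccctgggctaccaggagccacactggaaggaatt
Bmp8a: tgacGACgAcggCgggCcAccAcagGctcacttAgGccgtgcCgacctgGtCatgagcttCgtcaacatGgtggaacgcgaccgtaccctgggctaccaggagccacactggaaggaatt

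Over whole transcripts, 7.65% of the 50-base stretches of Bmp8b and 8.74% of those of Bmp8a also occurred in other genes. How reads shared by such genes were counted is not given in the sources used here, so the level of Bmp8b is uncertain in that respect. Bmp8b was at 0.0754 and 0.0742 FPKM in KO-labelled females and 0 and 0.103 FPKM in KO-labelled males, or 5, 5, 0 and 7 steps. In WT-labelled libraries it was at 0.130, 0.157 and 0.0691 FPKM in females and 0.0646 and 0.0507 FPKM in males, or 9, 10, 5, 5 and 4 steps. The 0 was that of KO male 1, and the other KO-labelled libraries lay inside the WT range. The totals were 17 steps in the 4 libraries labelled KO (exact Poisson 95% interval 9.90 to 27.2) and 33 in the 5 labelled WT (22.7 to 46.3). The exact permutation test gave a two-sided p of 0.365, or 0.821 without KO male 1. Bmp8a had only 7 steps in all, in 4 libraries.

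Il6 (chr5:30013114-30019981, plus strand) encodes interleukin 6, a cytokine of immune cells that fat also makes. It was at 0.0382 FPKM in KO male 1, 0.0446 FPKM in KO male 2 and 0.0418 FPKM in WT female 3, 1 step in each, and at 0 in the other 6 libraries. No difference could be read from 2 steps (exact Poisson 95% interval 0.242 to 7.22) against 1 (0.0253 to 5.57). The lymphocyte and macrophage RNA of KO male 1 thus came with no more Il6 than 1 step.

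**Figure D3:**
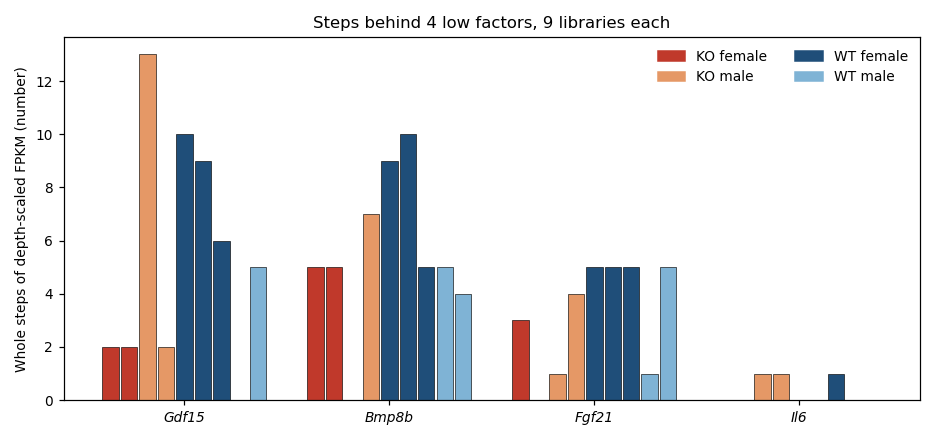
Number of whole steps of depth-scaled FPKM for the 4 factors with resolved steps, with 9 bars per gene, 1 for each library, coloured by genotype label and sex, females first within each label; a missing bar is an FPKM of 0. Counts stay at or below 13, the tallest Gdf15 bar is KO male 1, and Il6 shows 1 step in each of 3 libraries.

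Placed side by side, the differences of the 5 factors that could be modelled showed intervals that were wide for the lowest of them and excluded 0 for some. In females 0 of 5 passed the adjusted threshold (0.0204% of all genes tested did), with log2 differences between -0.09 (Slit2) and 0.19 (Ptgds). Both KO-labelled females lay above all 3 WT-labelled females for 0 of the 9 factors, as they did for 13.8% of all genes tested. They lay below them for Gdf15 and Fgf21, as for 26.6% of all genes tested. Factors with an FPKM of 0 in some library, Gdf15 and Fgf21 among them, are not in that set of genes. In males 0 of 5 passed as well (0.0136% of all genes), with differences of -2.08 (Slit2, 95% interval -3.92 to -0.24), -0.67 (Nrg4), -0.62 (Vegfa), -0.16 (Metrnl) and 1.51 (Ptgds). At an unadjusted p under 0.05, limma counted 0 of 5 in females (12.7% of all genes) and 3 of 5 in males (16.6% of all genes). The interaction of genotype and sex passed for 0 of 5 and for 0% of all genes. At an unadjusted p under 0.05 it counted Nrg4 and Ptgds, with 7.01% of all genes. Sex, averaged over the genotypes, passed for 0 of 5 (0.0136% of all genes), and at an unadjusted p under 0.05 it counted Vegfa alone, with 10.4% of all genes. The groups within each sex hold 2 or 3 libraries.

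**Figure D4:**
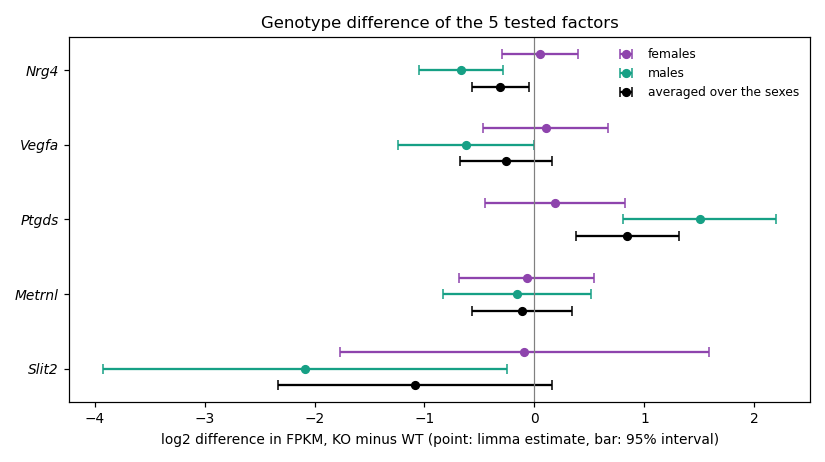
log2 difference in FPKM between libraries labelled KO and WT for the 5 factors above 0 in every library, in females, in males and averaged over the sexes (points: limma estimates; bars: unadjusted 95% intervals). Ptgds lies to the right in males (1.51) and Nrg4, Vegfa and Slit2 to the left (-0.67, -0.62 and -2.08), while the female estimates lie between -0.09 and 0.19.

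When all genes above 0 in at least 1 library were kept, with 0.1 added to each FPKM, all 9 factors could be modelled and 0 of 9 passed for genotype averaged over the sexes. The averaged differences of the 4 factors added were -0.15 for Gdf15 (limma adjusted p 0.902), -0.59 for Fgf21 (limma adjusted p 0.543), -0.22 for Bmp8b (limma adjusted p 0.704) and 0.17 for Il6 (limma adjusted p 0.583). These values understate changes of genes so near to 0.

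Around the 9 factors, 4 lists of related genes were read from the same model, averaged over the sexes, where 1.43% of all genes passed as higher and 2.17% as lower and the median difference was -0.07. These were 210 higher of 529 calls, and with median centring 130 higher of 222. Of 28 other secreted factors known or proposed for fat, 25 were tested, 3 rose and 1 fell under the KO label, with a median of -0.04. Of 27 receptors, co-receptors and enzymes of the factors, 24 were tested, 0 rose and 1 fell, with a median of -0.32 and 4 positive values. Of 15 regulators 1 rose and 0 fell (median 0.04), and of 11 response genes 0 passed (median -0.47).

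Epdr1, an ependymin-related secreted protein, rose most among the other secreted factors that passed the test. It was at 4.43, 2.74, 6.25 and 4.45 FPKM under the KO label and at 2.30, 1.84, 1.17, 1.45 and 0.838 FPKM under the WT label, with no overlap, as held for 3.03% of all genes tested in this direction. The log2 difference was 1.64 (SE 0.28, limma adjusted p 0.0351). Kng2, a kininogen and so a precursor of kinins, rose from 59.8 ± 7.17 to 86.3 ± 9.61 FPKM (log2 difference 0.56, SE 0.10, limma adjusted p 0.0370), with no overlap. Kng2 has a close relative, Kng1, with which it may share reads. Cxcl14, a chemokine that brown fat releases and that attracts macrophages, rose from 61.9 ± 24.8 to 102 ± 10.1 FPKM (log2 difference 0.88, SE 0.18, limma adjusted p 0.0440), although WT female 3, at 102.4 FPKM, lay among the KO-labelled libraries. Gpx3, the secreted glutathione peroxidase, fell by 0.72 on the log2 scale (SE 0.14, limma adjusted p 0.0426), at 946 ± 309 against 1512 ± 254 FPKM. Its groups overlapped, with KO female 1 (1237 FPKM) and KO female 2 (1184 FPKM) above WT female 3 (1158 FPKM). Without KO male 1 only Kng2 of these 4 still passed (limma adjusted p 0.0324), with a difference of 0.65. The others kept differences of 1.52 (Epdr1, limma adjusted p 0.0513), -0.78 (Gpx3, limma adjusted p 0.0514) and 0.95 (Cxcl14, limma adjusted p 0.0530).

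Klb, the co-receptor that Fgf21 needs, was the receptor gene that fell. It was at 4.30, 5.39, 3.59 and 6.34 FPKM under the KO label and at 9.30, 8.95, 8.25, 9.12 and 9.63 FPKM under the WT label, so that every KO-labelled library lay below every WT-labelled one, as did 6.04% of all genes tested. The log2 difference was -0.92 (SE 0.17, limma adjusted p 0.0376), and -0.72 without KO male 1 (limma adjusted p 0.0371). Fgfr1, the receptor that works with Klb and was picked out after its value was seen, differed by -0.10 (SE 0.13, limma adjusted p 0.756). Next in that list came Robo4, a receptor of the Slit receptor family found on vessels (-0.43, limma adjusted p 0.0840), and Kit, the receptor of stem cell factor (-1.26, limma adjusted p 0.109), neither of which passed.

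Trib3, a pseudokinase induced in the amino acid and stress response that also induces Fgf21 and Gdf15, was the regulator that rose. It was at 5.22, 4.12, 4.31 and 3.90 FPKM under the KO label and at 2.33, 1.73, 1.40, 2.02 and 2.64 FPKM under the WT label. These did not overlap, as held for 3.03% of all genes tested in this direction. The log2 difference was 1.10 (SE 0.18, limma adjusted p 0.0347), and 1.07 without KO male 1 (limma adjusted p 0.0472). Other genes of the same response in the list, picked out after their values were seen, did not pass, with differences of 0.04 for Atf4, 0.10 for Ddit3, -0.34 for Asns and 1.18 for Chac1 (limma adjusted p 0.200 for Asns to 0.891 for Atf4). Ppara, a regulator of Fgf21, differed by -0.31 (limma adjusted p 0.140) and Thra, a thyroid hormone receptor, by -0.37 (limma adjusted p 0.189).

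Among the response genes, Spry4 and Spry2, which restrain signalling by receptor kinases such as those of Vegfa and Fgf21, differed by -1.31 (limma adjusted p 0.0760) and -0.65 (limma adjusted p 0.102), and Id3, a target of bone morphogenetic proteins, by -0.76 (limma adjusted p 0.122). Spry2 was lower in every KO-labelled library (3.42 to 6.04 FPKM) than in every WT-labelled one (6.31 to 9.17 FPKM), as were 6.04% of all genes tested. The 6 calls in these lists rested on the full set of 9 libraries: each was lost without WT female 1 or WT female 2. So were most calls in the data, since limma called 9 and 23 of all genes in those fits, against 529. Each of the 6 was also lost without KO female 1, KO female 2 or WT male 2, fits that leave 1 library in a group. The number of the 9 leave-one-out fits in which a gene still passed was 3 for Trib3, 2 for Epdr1, Kng2 and Klb, and 1 for Gpx3 and Cxcl14. All 11 muscle markers were higher under the KO label, and their part in these differences was not tested.

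**Figure D5:**
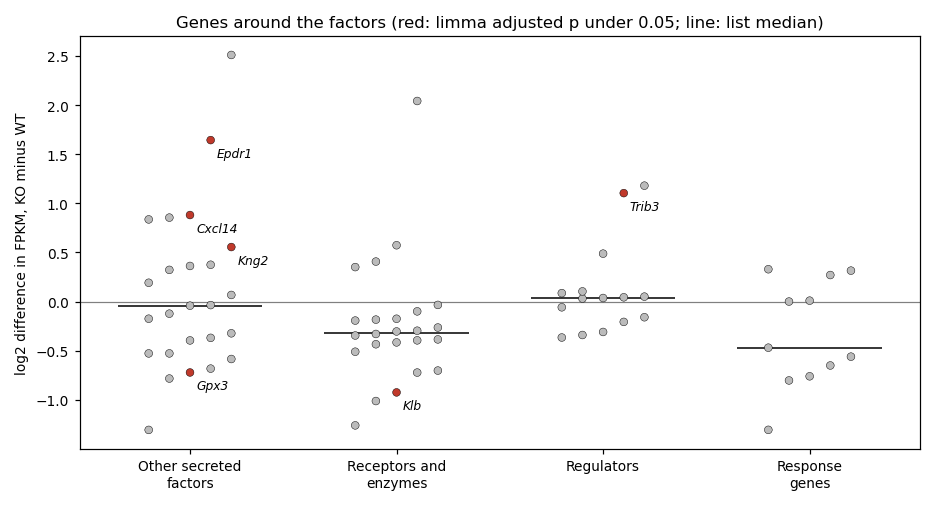
log2 difference in FPKM between libraries labelled KO and WT, averaged over the sexes, for each tested gene of 4 lists around the factors, with red points for a limma adjusted p under 0.05 and a line at the median of each list. The 6 red points are Epdr1, Cxcl14, Kng2 and Trib3 above 0 and Gpx3 and Klb below it; the medians run from -0.47 to 0.04.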

How the data were processed

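RNA of brown adipose tissue was poly(A) selected and sequenced as paired reads of 50 bases. The authors' deposited values are FPKM per gene symbol, 1 table per library, made per the labels and methods with bcl2fastq 1.8.4, TopHat2 2.0.11 and Bowtie on mm10; the annotation and the handling of shared reads are not given in the sources used here. No fragment counts are used, so depth is known only in relative terms, from values of 0.001 to 0.15 FPKM. No 2 libraries were identical. Libraries are numbered within their group.

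Genes above 0 FPKM in all 9 libraries were fitted on log2 FPKM with limma 3.58.1 (R 4.3.3): a mean per group of genotype and sex, a mean-variance trend, and Benjamini-Hochberg adjustment over all genes at 0.05. This replaces the ordinary linear model of the methods, which was run as an alternative. Each factor was also tested by an exact permutation test on log2(FPKM + 0.1). Steps were accepted within 3% of a whole multiple. The fit was tested on simulated data. Positions and sequences come from GENCODE M21. Genes named are the 9 factors, Bmp8a, Ghrh, the genes of each list with an adjusted p under 0.05, filled up to 3 by the lowest p where fewer passed, and markers that lead their list or are at 0. Fgfr1, Atf4, Ddit3, Asns, Chac1, Gfral and the markers Lep, Col1a1, Col3a1, Lum and Cd163 lie outside this rule and were added after their values were seen. The factors, lists and tests were chosen with earlier results of these data known. Alternatives covered the pseudocount, filter, scaling, model and each library left out in turn. The libraries come from separate mice. Python 3.11.15, matplotlib 3.10.9, numpy 2.4.6, pandas 2.3.3 and scipy 1.17.1 were used.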

Additional observations from a re-analysis of the deposited data

Results flagged for a closer look

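In 3 groups the lowest or highest library lay far from the rest, by Dixon's ratio of the gap to the nearest library over the whole range of the group. In Gdf15 among the 4 libraries labelled KO, KO male 1 was the highest, with a ratio of 0.9948, past the 95% critical value for 4 libraries. In Fgf21 among the 5 libraries labelled WT, WT male 1 was the lowest, with a ratio of 0.7565, past that for 5 libraries. In Il6 among those 5 libraries, WT female 3 was the highest, with a ratio of 1, since the other 4 were at 0. In all, 18 groups were tested, and chance marks about 1 group in 20. All 3 genes lay near the detection limit, where 1 step moves the ratio.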

How the results depend on the processing

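Averaged over the sexes, 0 of the tested factors passed under every alternative run that kept at least 2 libraries in each group. Nrg4 gave -0.42 without KO male 2 and Ptgds 1.01 without WT male 1. In males these were -0.90 and 1.82. Without KO male 2, Vegfa gave -0.69 for sex and Nrg4 -0.95 for the interaction. These fits leave 1 library in a group. With any 1 WT-labelled female left out, 0 passed in males, for sex and for the interaction. The number of all genes called, 529, became 170 with no filter and log2(FPKM + 0.1), 222 with median centring (quantile normalization gave 444, 228 of them higher), 1107 with the ordinary linear model and 8 to 1105 with single libraries left out. Median centring moved the median difference of all genes up by 0.06.

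Among the other secreted factors, 4 calls became 1 with median centring (Epdr1) and 1 without KO male 1 (Kng2), and the call for Klb was lost with median centring (0 left). Their differences moved little with centring, to 0.61 (Kng2), 0.94 (Cxcl14), -0.66 (Gpx3) and -0.87 (Klb). The ordinary linear model in females, a separate comparison, gave 0.050 for Nrg4 and 0.10 for Vegfa, the same differences as limma in females. Median centring turned the female differences of Slit2 to 0.016 and Metrnl to 0.038. With single libraries left out, the female differences ran from -0.086 to 0.19 (Nrg4), -0.10 to 0.31 (Vegfa), -0.63 to 0.47 (Slit2), -0.065 to 0.44 (Ptgds) and -0.21 to 0.087 (Metrnl). Those of Metrnl ran from -0.29 to 0.057 on average, -0.50 to 0.19 in males and -0.43 to 0.26 for the interaction. By permutation, Ptgds ran from 0.52 to 0.90 (exact permutation p 0.0286 to 0.107), and was 0.73 with p 0.0833 for splits within each sex; Nrg4 ran from -0.40 to -0.13, Fgf21 from -0.92 to -0.37 and Metrnl from -0.16 to 0.027. The cause of these changes was not tested. No paired analysis was possible because the labels give each mouse its own number and no number is shared between groups. What difference could be detected for Gdf15, Fgf21, Slit2, Bmp8b and Il6 at these low levels was not tested.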
